A study of Mus musculus with 17 samples.

Results

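Expression of 10 genes of the tumour necrosis factor (TNF) pathway and its NF-kB feedback loop was followed in mouse lungs after focal irradiation. The genes were Tnf, Tnfrsf1a, Tnfrsf1b, Tnfaip2, Tnfaip3, Nfkbia, Nfkbie, Birc3, Traf1 and Relb, taken by their symbols from a table of 45777 genes, and all 10 were among the 22052 genes that passed the filter on low counts. The animals were male wild-type C57BL/6 mice, 6 weeks of age on arrival, with 1 week to settle. The left lung received a single focal fraction of 65 or 75 Gy and was collected after 2 or 6 weeks, and non-irradiated mice were collected at both times. Irradiated tissue was taken at the lesion according to the study's methods. Lung RNA was sequenced in 17 libraries, which are named here by their own numbers. Each group had 3 libraries, except the 65 Gy group at 6 weeks, which had 2. The study lists 3 replicates for that group, so 1 of them is not among the 17 libraries. On GRCm38.p6 the genes that the results turn on lie at chr17:35199367-35202007 (Tnf), chr4:145212368-145246870 (Tnfrsf1b), chr12:55489409-55492647 (Nfkbia) and chr17:45555700-45563169 (Nfkbie), and the values count reads over whole genes. No group carried a transgene or received a drug under test, and the mice kept their own immune system. Ketamine and xylazine were used for anesthesia according to the study's methods.

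TNF is a cytokine released mainly by macrophages and other activated leukocytes. It binds TNFR1 (Tnfrsf1a), which most cells carry, and TNFR2 (Tnfrsf1b), which is found mostly on leukocytes and endothelium. Both receptors can lead to release of the transcription factor NF-kB from its inhibitors, the IkB proteins. NF-kB in turn switches on genes that end its own activity, among them Nfkbia (IkB-alpha), Nfkbie (IkB-epsilon) and Tnfaip3 (the ubiquitin-editing enzyme A20), and genes that carry the signal on, among them Birc3 (the ubiquitin ligase cIAP2), Traf1 (a receptor adaptor) and Relb (the NF-kB subunit of the non-canonical arm). In irradiated lung the pathway is known for its part in the early inflammatory reaction.

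The promoters of the feedback inhibitors Nfkbia, Nfkbie and Tnfaip3 are shown because these genes are textbook NF-kB targets that behaved differently from each other in the results. RefSeq promoters on GRCm38.p6, from 250 bases before to 50 after the start, were matched for 9 of the 10 genes, and Relb was not matched. The 10-letter NF-kB consensus, searched on both strands, was found in 4 of these 9 genes (44.4%), namely Tnfaip2, Tnfaip3, Nfkbia and Nfkbie, and in 2779 of all 32851 promoters (8.46%). The 3 shown here are Nfkbia (chr12:55492598-55492897, minus strand), Nfkbie (chr17:45555450-45555749, plus strand) and Tnfaip3 (chr10:19015361-19015660, minus strand), each 5′ to 3′ on the gene's strand with the matches in capitals.
Nfkbia: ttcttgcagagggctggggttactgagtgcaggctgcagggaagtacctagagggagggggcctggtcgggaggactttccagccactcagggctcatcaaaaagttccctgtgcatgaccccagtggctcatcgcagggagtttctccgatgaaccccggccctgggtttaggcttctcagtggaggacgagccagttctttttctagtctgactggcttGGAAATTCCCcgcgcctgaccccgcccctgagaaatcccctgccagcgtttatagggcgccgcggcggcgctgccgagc
Nfkbie: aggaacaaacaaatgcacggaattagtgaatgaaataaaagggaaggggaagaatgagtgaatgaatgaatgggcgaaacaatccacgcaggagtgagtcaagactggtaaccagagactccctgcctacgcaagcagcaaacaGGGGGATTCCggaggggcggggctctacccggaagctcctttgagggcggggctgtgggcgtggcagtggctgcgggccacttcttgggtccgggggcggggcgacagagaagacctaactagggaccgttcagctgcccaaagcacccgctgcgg
Tnfaip3: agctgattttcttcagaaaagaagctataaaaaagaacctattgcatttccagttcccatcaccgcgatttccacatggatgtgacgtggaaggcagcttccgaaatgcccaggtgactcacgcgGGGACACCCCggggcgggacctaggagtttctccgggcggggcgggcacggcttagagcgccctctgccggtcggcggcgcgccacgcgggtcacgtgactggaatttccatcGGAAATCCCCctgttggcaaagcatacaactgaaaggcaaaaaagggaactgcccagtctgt
The match began at position -29 in Nfkbia, at -106 in Nfkbie, and at -125 and -12 in Tnfaip3, counted from the start of transcription. The match at -125 read on both strands. No match was found in the windows of Tnf, Tnfrsf1a, Tnfrsf1b, Birc3 and Traf1. A match describes letters in a window and not a bound site.

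Each library held between 46764569 and 66797879 counts, so that even the rarest of the 10 transcripts, Tnf, rested on 48 to 361 counts. Values are given as CPM, the count of a gene relative to the total of its library scaled with TMM factors. Markers of alveolar type 1 and type 2 epithelium were present in every library. Library 3134 of the 75 Gy group at 2 weeks stood apart. It had the highest level of the 17 libraries for 7 of the 10 genes, and its summed CPM of 5 pan-leukocyte genes (Ptprc, Cd52, Cd53, Coro1a, Laptm5) reached 1714, against 587 to 1172 in the other libraries. Results of the 10 genes, and calls in lists of related genes, that rest on it are given with and without it. Values of single related genes that passed by adjusted p alone are given with all libraries only. Among the controls at 2 weeks, library 3126 also differed from the others. Its summed CPM of 8 monocyte and macrophage markers was 10488, against 4986 in 3127 and 6741 in 3128. In whole tissue, fewer cells of a type and less RNA per cell cannot be told apart.

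Per kilobase of exon, Nfkbia was the most abundant transcript of the set in the control lungs at 2 weeks, with a mean of 100.4 CPM per kb, followed by Tnfrsf1a with 60.8 and Tnfrsf1b with 18.4. Tnfaip2 (12.3 CPM per kb) and Birc3 (11.9 CPM per kb) came next and overlapped. Tnfaip3 (5.40), Relb (5.31) and Traf1 (4.91) formed a run in which neighbours overlapped, above Nfkbie (3.58). Tnf was last at 0.676 CPM per kb, and it stayed last in all 6 groups. Nfkbia, Tnfrsf1a and Tnfrsf1b kept the first 3 places in every group, but in the 75 Gy lungs at 2 weeks their ranges overlapped, with means of 65.6, 65.0 and 60.6 CPM per kb.

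**Figure D1:**
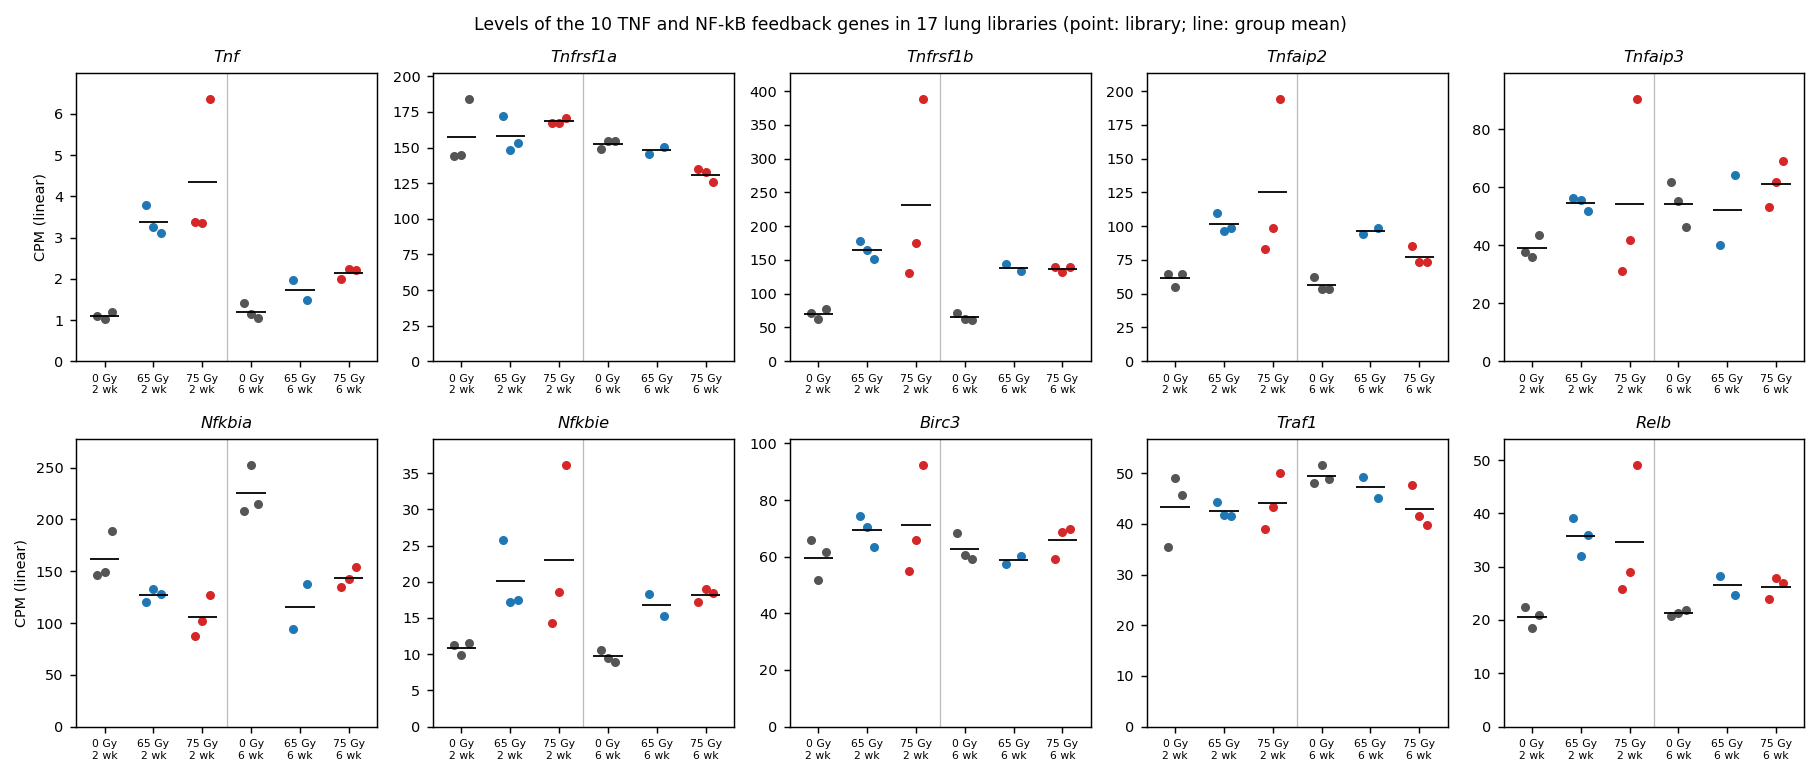
CPM (linear scale) of each of the 10 genes in the 17 libraries by dose and time, with 1 point per library and a line at the group mean. Tnfrsf1b lay at 61.6 to 76.8 CPM in the 6 control libraries and at 131 to 388 CPM in the irradiated ones, while Nfkbia lay below its same-time controls after either dose.

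Compared with the controls of the same time, the ligand, its second receptor and part of the feedback genes were higher in irradiated lungs, and Nfkbia was lower. Calls required a log2 fold change of at least 1 in size together with an adjusted p of at most 0.05 (edgeR quasi-likelihood test, Benjamini-Hochberg over all genes tested). After 75 Gy, 4 of the 10 genes were called higher at 2 weeks (Tnf, Tnfrsf1b, Nfkbie and Tnfaip2; 5.67% of all genes tested) and 1 at 6 weeks (Tnfrsf1b; 7.28% of all genes). After 65 Gy, 2 were called higher at 2 weeks (Tnf and Tnfrsf1b; 3.47% of all genes) and 1 at 6 weeks (Tnfrsf1b; 4.34% of all genes). None was called lower by edgeR or DESeq2, against 2.07%, 3.13%, 0.88% and 0.943% of all genes in the same order, and 1, 2, 1 and 1 were lower at an unadjusted p of 0.05, where 17%, 22.2%, 11.9% and 14.5% of all genes were. By adjusted p alone, 5, 3, 5 and 2 of the 10 genes were higher in that order, against 11.8%, 18%, 6.7% and 7.66% of all genes, and Nfkbia was the 1 gene that was lower in all of them but 65 Gy at 2 weeks, against 10.5%, 18%, 4.29% and 7.01% of all genes. The median log2 fold change of the 10 genes was 0.61, 0.24, 0.61 and 0.13, where the median of all genes lay between -0.01 and 0.04. Without library 3134, Tnfaip2 (0.57) and Nfkbie (0.59) were no longer called after 75 Gy at 2 weeks. Each of the 10 log2 fold changes there was then lower than with all libraries, so that median of 0.61 rests in part on library 3134. Both doses are compared with the same control libraries, so these comparisons are not independent of each other.

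Tnf, the ligand, was at 1.096, 1.03 and 1.20 CPM in the 3 control lungs at 2 weeks. It was at 3.78, 3.27 and 3.10 CPM after 65 Gy and at 3.38, 3.34 and 6.35 CPM after 75 Gy. Every irradiated lung at 2 weeks was thus above every control, and library 3134 held the value of 6.35. The log2 fold change was 1.61 (SE 0.24, adjusted p = 0.000616) for 65 Gy and 1.97 (SE 0.24, adjusted p = 7.71e-05) for 75 Gy by edgeR's quasi-likelihood test. Without library 3134 the rise after 75 Gy was 1.60 (SE 0.18, adjusted p = 5.82e-05).

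By 6 weeks the Tnf values lay closer together. The controls had 1.41, 1.14 and 1.05 CPM, the 65 Gy lungs 1.96 and 1.48 CPM, and the 75 Gy lungs 2.00, 2.23 and 2.21 CPM. The irradiated lungs were again all above their controls, but the smallest gap, between 1.48 after 65 Gy and 1.41 in a control, was small. By edgeR's test the log2 fold change after 75 Gy was 0.84 (SE 0.24, adjusted p = 0.0129, 0.0529 without control 3137 and 0.00627 with only the groups compared fitted), under the fold limit. After 65 Gy it was 0.52 (SE 0.26) with an adjusted p of 0.200.

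The receptors behaved differently from each other. Tnfrsf1b (TNFR2) was at 70.8, 63.0 and 76.8 CPM in the control lungs at 2 weeks, at 178, 164 and 152 CPM after 65 Gy, and at 131, 175 and 388 CPM after 75 Gy. At 6 weeks it was at 72.0, 62.1 and 61.6 CPM in the controls, at 144 and 133 CPM after 65 Gy, and at 139, 132 and 139 CPM after 75 Gy. No irradiated lung overlapped a control at either time. The log2 fold change by edgeR was 1.23 (SE 0.27, adjusted p = 0.00889) for 65 Gy and 1.72 (SE 0.27, adjusted p = 0.000534) for 75 Gy at 2 weeks, and 1.09 (SE 0.29, adjusted p = 0.0220) and 1.07 (SE 0.27, adjusted p = 0.00628) at 6 weeks. Tnfrsf1b was called higher in all 4 comparisons. Without library 3134 the value at 2 weeks after 75 Gy was 1.13 (SE 0.12, adjusted p = 3.16e-05), still called. The call for 65 Gy at 6 weeks was lost when any of the libraries 3136, 3137, 3138 or 3140 was left out, where the adjusted p lay between 0.0675 and 0.127. Over all libraries left out in turn the log2 fold change stayed between 1.04 and 1.16. With only the groups compared fitted, the adjusted p for 65 Gy at 6 weeks was 0.000374 by edgeR.

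Tnfrsf1a (TNFR1) was at 144 to 184 CPM in the controls at 2 weeks, at 149 to 172 CPM after 65 Gy and at 167 to 170 CPM after 75 Gy, with the groups overlapping. At 6 weeks the controls had 149, 155 and 154 CPM, the 65 Gy lungs 146 and 150.5 CPM, and the 75 Gy lungs 135, 133 and 126 CPM. The 75 Gy lungs were all below the controls there, but the log2 fold change of -0.22 (SE 0.09) missed the limit, with an adjusted p of 0.0725 by edgeR. Its 95% interval ran from -0.40 to -0.04, and that of Tnfrsf1b from 0.55 to 1.59. In the other comparisons with controls the log2 fold change of Tnfrsf1a lay between -0.04 and 0.10.

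The IkB genes lay on opposite sides of the controls. Nfkbia (IkB-alpha) was at 146, 150 and 189 CPM in the controls at 2 weeks, at 120, 133 and 128 CPM after 65 Gy and at 87.5, 102 and 127 CPM after 75 Gy. At 6 weeks it was at 208, 253 and 215 CPM in the controls, at 93.8 and 138 CPM after 65 Gy, and at 135, 142 and 154 CPM after 75 Gy. Every irradiated lung was below every control of its time. Nfkbia fell after 75 Gy by 0.61 on the log2 scale at 2 weeks (SE 0.15, adjusted p = 0.0104, edgeR) and by 0.65 at 6 weeks (SE 0.15, adjusted p = 0.00483). After 65 Gy it fell by 0.96 at 6 weeks (SE 0.18, adjusted p = 0.00299, and 0.00812 when only the groups compared were fitted). The value at 2 weeks was -0.35 (SE 0.15, adjusted p = 0.168). The adjusted p for 75 Gy at 2 weeks was 0.0547 without control 3128 and 0.0725 when only the groups compared were fitted, and that for 65 Gy at 6 weeks was 0.0559 without library 3138. None of the 4 log2 fold changes reached the fold limit, although the 65 Gy value at 6 weeks passed it when control 3135 (-1.01) or library 3140 (-1.25) was left out.

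Nfkbie (IkB-epsilon) was at 11.2, 9.94 and 11.6 CPM in the controls at 2 weeks, at 25.7, 17.3 and 17.5 CPM after 65 Gy, and at 14.4, 18.6 and 36.2 CPM after 75 Gy. At 6 weeks it was at 10.6, 9.45 and 8.97 CPM in the controls, at 18.3 and 15.3 CPM after 65 Gy and at 17.2, 19.0 and 18.5 CPM after 75 Gy. Irradiated lungs were all above controls at both times. By edgeR the log2 fold change at 2 weeks was 1.08 after 75 Gy (SE 0.25, adjusted p = 0.00720) and 0.89 after 65 Gy (SE 0.25, adjusted p = 0.0368). The latter p was over 0.05 without 3126, 3127, 3128, 3129 or 3131, and reached 0.167, but was 0.0145 when only the groups compared were fitted. At 6 weeks it was 0.91 after 75 Gy (SE 0.25, adjusted p = 0.0119) and 0.79 after 65 Gy (SE 0.28, adjusted p = 0.0694). The call at 2 weeks after 75 Gy turned on library 3134, without which the value was 0.59 (SE 0.17, adjusted p = 0.0278). Both genes hold 1 NF-kB consensus match in the promoters printed above. Nfkbia and Nfkbie differed by a root mean square of 0.830 log2 CPM over the 17 libraries once each was centred on its mean, the largest difference Nfkbia had with a member other than Tnf (1.06) and Tnfrsf1b (1.01).

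Tnfaip3 (A20) holds 2 matches in the promoter printed above. It was at 37.5, 36.0 and 43.5 CPM in the controls at 2 weeks, at 56.5, 55.8 and 51.9 CPM after 65 Gy, and at 31.0, 41.9 and 90.3 CPM after 75 Gy. The 65 Gy lungs lay above the controls, whereas the 75 Gy lungs overlapped them and spread over 2.91-fold, the full range of the gene. The log2 fold changes of 0.49 and 0.48 (SE 0.29 for each) had adjusted p of 0.314 and 0.254 by edgeR, and without library 3134 the 75 Gy value was -0.10 (SE 0.19). At 6 weeks the groups overlapped, with 46.2 to 61.9 CPM in controls, 40.1 and 64.3 CPM after 65 Gy and 53.1 to 69.0 CPM after 75 Gy.

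Tnfaip2 encodes a TNF-inducible protein of the exocyst-related M-Sec type. It was at 65.0, 54.6 and 64.8 CPM in the controls at 2 weeks, at 109, 96.4 and 98.9 CPM after 65 Gy and at 83.2, 99.0 and 194 CPM after 75 Gy. Neither irradiated group overlapped the controls. By edgeR the log2 fold change was 0.72 after 65 Gy (SE 0.22, adjusted p = 0.0465, and over 0.05 without any 1 of the 6 libraries) and 1.03 after 75 Gy (SE 0.22, adjusted p = 0.00399), the latter 0.57 without library 3134 (SE 0.11, adjusted p = 0.00345) and 0.95 without control 3127, both under the fold limit. With only the groups compared fitted, the adjusted p was 0.00460 after 65 Gy and 0.0833 after 75 Gy. For 65 Gy at 6 weeks that refit gave 0.000951. At 6 weeks the controls had 53.6 to 62.2 CPM, the 65 Gy lungs 94.1 and 98.6 CPM and the 75 Gy lungs 73.2 to 85.6 CPM. The log2 fold change after 65 Gy was 0.77 (SE 0.24, adjusted p = 0.0445, edgeR; between 0.0717 and 0.179 without any 1 of the 5 libraries), and the value after 75 Gy was 0.46 (SE 0.22, adjusted p = 0.117) with no overlap with controls.

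Relb, the non-canonical NF-kB subunit, was at 22.4, 18.5 and 21.0 CPM in the controls at 2 weeks, at 39.1, 32.0 and 36.0 CPM after 65 Gy, and at 25.8, 28.9 and 49.1 CPM after 75 Gy. All irradiated lungs were above the controls. By edgeR the log2 fold change was 0.79 after 65 Gy (SE 0.18, adjusted p = 0.0123, and 0.0556 and 0.0546 without 3127 and 3129). After 75 Gy it was 0.75 (SE 0.18, adjusted p = 0.00851), or 0.41 without library 3134 (SE 0.11, adjusted p = 0.0250), and the adjusted p was 0.110 when only the groups compared were fitted. That refit gave an adjusted p of 0.00517 after 65 Gy. At 6 weeks the irradiated lungs, at 23.9 to 28.3 CPM, lay just above the controls at 20.8 to 21.9 CPM. The log2 fold changes of 0.31 after 65 Gy and 0.30 after 75 Gy had adjusted p of 0.321 and 0.211.

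Birc3 and Traf1 did not pass the test in any comparison. Birc3 ranged from 51.8 to 92.5 CPM over the 17 libraries, with log2 fold changes against controls of -0.09 to 0.25 and overlapping groups. Traf1 ranged from 35.4 to 51.7 CPM, with log2 fold changes of -0.20 to 0.03. The 75 Gy lungs at 6 weeks were below the controls for Traf1 (39.8 to 47.7 against 48.1 to 51.7 CPM), with an adjusted p of 0.192 by edgeR and a 95% interval of the log2 fold change from -0.43 to 0.03. Counting only whether the libraries overlapped, 5 genes lay wholly above controls and 1 below at 2 weeks after 75 Gy (15.5% and 14.8% of all genes) and 5 and 3 at 6 weeks (29.4% and 27.7%). After 65 Gy the counts were 6 and 1 at 2 weeks (15.9% and 13.5%) and 5 and 1 at 6 weeks (28.2% and 28.1%). The members' shares of higher genes were above the background, and those of lower genes were below it or near it.

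**Figure D2:**
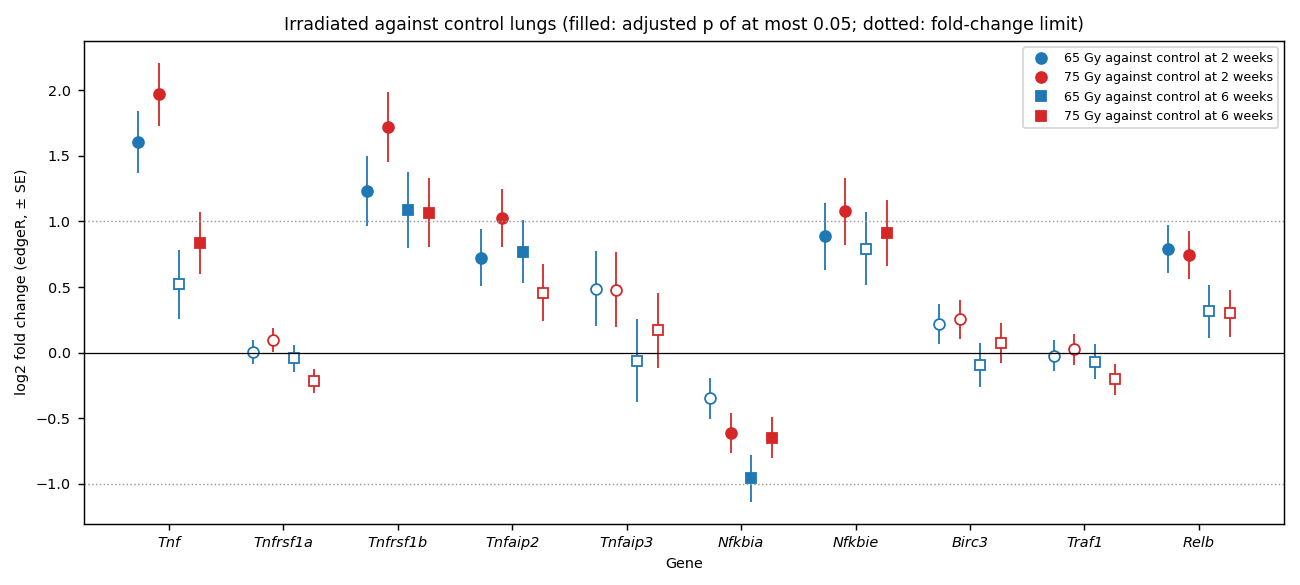
Log2 fold change of each gene in irradiated against control lungs of the same time, with the SE from edgeR as bars, filled where the adjusted p was at most 0.05, and dotted lines at the fold limit. Tnf (1.61 and 1.97) and Tnfrsf1b lie highest at 2 weeks, Nfkbia lies below 0 in all 4 comparisons, and Tnfrsf1a, Birc3 and Traf1 lie near 0.

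The doses were compared directly at each time. None of the 10 genes passed edgeR's test, nor an unadjusted p of 0.05, at 2 weeks, where the smallest adjusted p was 0.699, or at 6 weeks, where it was 0.735, and 0% of all genes were called by edgeR at either time. At an unadjusted p of 0.05 there were 1570 genes at 2 weeks and 1431 at 6 weeks, and DESeq2 called 7 and 14, of which 0 were among the 10. No gene of the 10 was free of overlap between doses at 2 weeks, against 5% of all genes higher and 5.95% lower. At 2 weeks the log2 difference of 75 Gy from 65 Gy was 0.49 for Tnfrsf1b (95% interval -0.02 to 1.01) and 0.36 for Tnf (-0.08 to 0.81). Tnfaip2 had 0.30 (-0.12 to 0.73), Nfkbie 0.19 (-0.30 to 0.68), Nfkbia -0.26 (-0.57 to 0.04) and Relb -0.04 (-0.40 to 0.31). These 4 positive values turned on library 3134. Without it they were -0.10 for Tnfrsf1b, -0.01 for Tnf, -0.16 for Tnfaip2 and -0.29 for Nfkbie, and Relb, Nfkbia and Tnfaip3 stood at -0.38, -0.42 and -0.59, the last from -0.01 with all libraries. These 3 then had an unadjusted p of 0.00437, 0.0167 and 0.00811, with adjusted p of 0.520 to 0.593 by edgeR.

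At 6 weeks Tnf was higher in every 75 Gy lung than in either 65 Gy lung (15.6% of all genes), with a log2 difference of 0.32 (95% interval -0.20 to 0.83, adjusted p = 0.778, edgeR). Tnfaip2 (-0.31, interval -0.79 to 0.16) and Tnfrsf1a were lower in every 75 Gy lung (15.3% of all genes). Of the remaining genes, the difference at 6 weeks was 0.31 for Nfkbia (-0.03 to 0.65), 0.12 for Nfkbie (-0.43 to 0.67), -0.02 for Tnfrsf1b (-0.59 to 0.56) and -0.01 for Relb (-0.41 to 0.38). Tnfaip3 had 0.23 (-0.40 to 0.86), Birc3 0.16 (-0.17 to 0.50) and Traf1 -0.13 (-0.39 to 0.12).

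The change of the effect from 2 to 6 weeks was tested as an interaction of dose and time. None of the 10 genes passed by edgeR or DESeq2, against 0.254% of all genes called for 75 Gy and 0.0136% for 65 Gy. At an unadjusted p of 0.05 (edgeR), 2 of the 10 were lower and 0 higher for each dose. For 75 Gy these were Tnf and Tnfrsf1a. Tnfrsf1a had -0.32 (SE 0.13, unadjusted p = 0.0270, adjusted p = 0.254), or -0.31 without library 3134 (unadjusted p = 0.0398). Of all genes, 8.8% were lower for 75 Gy and 4.37% for 65 Gy. The median over the 10 genes was -0.31 for 75 Gy and -0.23 for 65 Gy, against -0.003 and -0.009 over all genes. All 10 values for 75 Gy were below 0 (highest -0.04), but without library 3134 those of Tnfaip3, Nfkbia, Nfkbie and Birc3 were above 0. Tnf had the lowest value for both doses. The log2 effect of 75 Gy on Tnf differed by -1.13 at 6 weeks from that at 2 weeks (SE 0.33, unadjusted p = 0.00399, adjusted p = 0.158, edgeR), and that of 65 Gy was -1.09 (SE 0.36, unadjusted p = 0.00827, adjusted p = 0.452). Without library 3134 the 75 Gy value for Tnf was -0.76 (adjusted p = 0.178). For Nfkbia the difference was -0.61 at 65 Gy (SE 0.23, adjusted p = 0.528) and -0.04 at 75 Gy. Tnfrsf1b had -0.65 at 75 Gy (SE 0.37, adjusted p = 0.398), which was -0.06 without library 3134, and -0.14 at 65 Gy.

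Control lungs were compared with each other between the times, and no gene of the 10 passed by edgeR or DESeq2, against 0.576% of all genes. At an unadjusted p of 0.05 there was 1 of the 10, and 15.5% of all genes. Nfkbia at 6 weeks (208 to 253 CPM) lay above 2 weeks (146 to 189 CPM) in every library, with a log2 difference of 0.48 (SE 0.15, unadjusted p = 0.00717, adjusted p = 0.147, edgeR). Tnfaip3 also did not overlap, at 46.2 to 61.9 against 36.0 to 43.5 CPM, and 12.4% of all genes were likewise higher without overlap (11.2% lower). Since each dose is read against controls of its own time, the control level of Nfkbia enters its value at 6 weeks. The irradiated lungs themselves had 87.5 to 133 CPM of Nfkbia at 2 weeks and 93.8 to 154 CPM at 6 weeks.

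**Figure D3:**
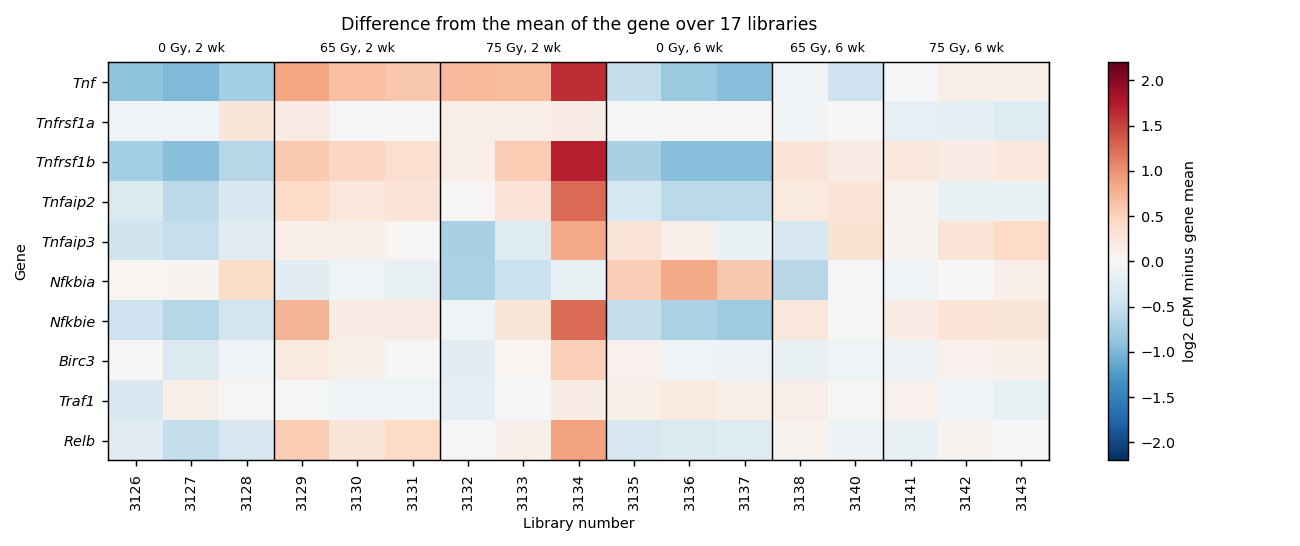
Log2 CPM of the 10 genes (rows) in the 17 libraries (columns, grouped by dose and time) after subtraction of the mean of each gene. Library 3134 is the reddest column for 7 genes, and the row of Nfkbia runs opposite to those of Tnf, Tnfrsf1b and Nfkbie, with its highest values in the controls at 6 weeks.

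Several lists of cell type markers also differed between irradiated and control lungs. The summed CPM of the 5 pan-leukocyte genes was 587 to 778 in controls at 2 weeks, 937 to 1010 after 65 Gy and 991 to 1714 after 75 Gy, and at 6 weeks it was 643 to 890, 1037 to 1042 and 1092 to 1172. Of 8 monocyte and macrophage markers, 5 and 6 were called higher after 75 Gy at 2 and 6 weeks, and 4 and 6 after 65 Gy. Their sums at 2 weeks were 4986 to 10488 CPM in controls, 8538 to 9387 after 65 Gy and 11563 to 13642 after 75 Gy. The 65 Gy lungs thus overlapped the controls there, through control 3126. At 6 weeks the sums did not overlap, at 4378 to 4844 CPM in controls, 10939 to 12322 after 65 Gy and 13377 to 14525 after 75 Gy. Of 6 alveolar macrophage markers, 1 and 2 were called higher and 1 and 1 lower after 75 Gy at 2 and 6 weeks. After 65 Gy 1 and 3 were called higher and 2 and 0 lower. Alveolar macrophage sums overlapped at 2 weeks (429 to 1095 CPM in controls, 528 to 685 after 65 Gy, 622 to 856 after 75 Gy). At 6 weeks they were 399 to 541, 1420 to 1961 and 1270 to 1480 CPM in that order. The shares of all genes called are those given above. All 6 neutrophil markers were called lower at 2 weeks after either dose, with summed CPM of 432 to 674 in controls against 145 to 192 and 116 to 232, and 2 of 6 at 6 weeks. Endothelial markers summed to 3596 to 4312 CPM in controls at 2 weeks and 1579 to 2845 CPM in irradiated lungs, and to 3982 to 4125 against 1588 to 2270 CPM at 6 weeks, with 1 and 5 of 6 called lower after 75 Gy and 1 and 1 after 65 Gy. Of 6 dendritic cell markers 3 and 4 were called higher after 75 Gy and 2 and 4 after 65 Gy, with sums of 136 to 181 CPM in controls and 243 to 491 CPM in irradiated lungs. Of 5 B cell markers 1 and 2 were called lower after 75 Gy and 0 and 1 after 65 Gy. Of 6 T cell markers 0 and 3 were called higher after 75 Gy and 0 and 1 after 65 Gy. Of 5 plasma cell markers 0 and 2 were called higher after 75 Gy and 0 and 1 after 65 Gy. Of 4 NK cell markers 1 was called lower, after 75 Gy at 6 weeks. The airway markers summed to 16523 to 20517 CPM in controls and 6343 to 13822 CPM in irradiated lungs, with 1 of 4 called lower, after 75 Gy at 6 weeks. Library 3134 had the lowest sums of the endothelial, airway, B cell, and alveolar type 1 and type 2 lists and the highest dendritic and T cell sums. The part of these lists in the results for the 10 genes was not tested. The thymocyte markers summed to 0.222 to 1.52 CPM.

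Each gene was also expressed as a percentage of the summed pan-leukocyte CPM of its library. Tnf was at 0.168% ± 0.0246 (SD, n = 3) of it in controls at 2 weeks, 0.349% ± 0.0224 (n = 3) after 65 Gy and 0.346% ± 0.0225 (n = 3) after 75 Gy, without overlap. On this scale Tnf was thus 2.08-fold and 2.06-fold higher, and library 3134, at 0.370%, no longer stood apart from the 65 Gy lungs, whose highest value was 0.374%. At 6 weeks the ratio for Tnf was 1.01 after 65 Gy, with overlap, and 1.16 after 75 Gy. Tnfrsf1b stayed above controls in every irradiated lung, by 1.60-fold and 1.66-fold at 2 weeks and by 1.48-fold and 1.35-fold at 6 weeks for 65 and 75 Gy. No ratio was taken to the monocyte and macrophage sums, which were also higher at 6 weeks.

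Nfkbia was further apart from the controls on this scale. It was at 24.6% ± 5.45 (SD, n = 3) of the leukocyte sum in controls at 2 weeks, 13.1% ± 1.12 (n = 3) after 65 Gy and 8.75% ± 1.28 (n = 3) after 75 Gy, and at 6 weeks at 31.7% ± 7.62 (n = 3), 11.1% ± 2.97 (n = 2) and 12.8% ± 1.13 (n = 3). Since the leukocyte sum was itself higher, a gene with a level CPM lies lower on this scale, and 52.3% to 56.9% of all genes lay wholly below the controls (3.43% to 7.12% above). Tnfrsf1a, Birc3 and Traf1 were among those below, by ratios of 0.544 to 0.799, and Tnfaip3 was below at 6 weeks (0.727 after 75 Gy and 0.669 after 65 Gy) and overlapped at 2 weeks. Nfkbie was above controls at 6 weeks (1.20-fold and 1.21-fold) and overlapped them at 2 weeks. Relb was above controls after 65 Gy at 2 weeks (1.19-fold) and below after 75 Gy (0.889). Tnfaip2 overlapped the controls except after 65 Gy at 6 weeks (1.18-fold). These ratios are a description without a test.

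**Figure D4:**
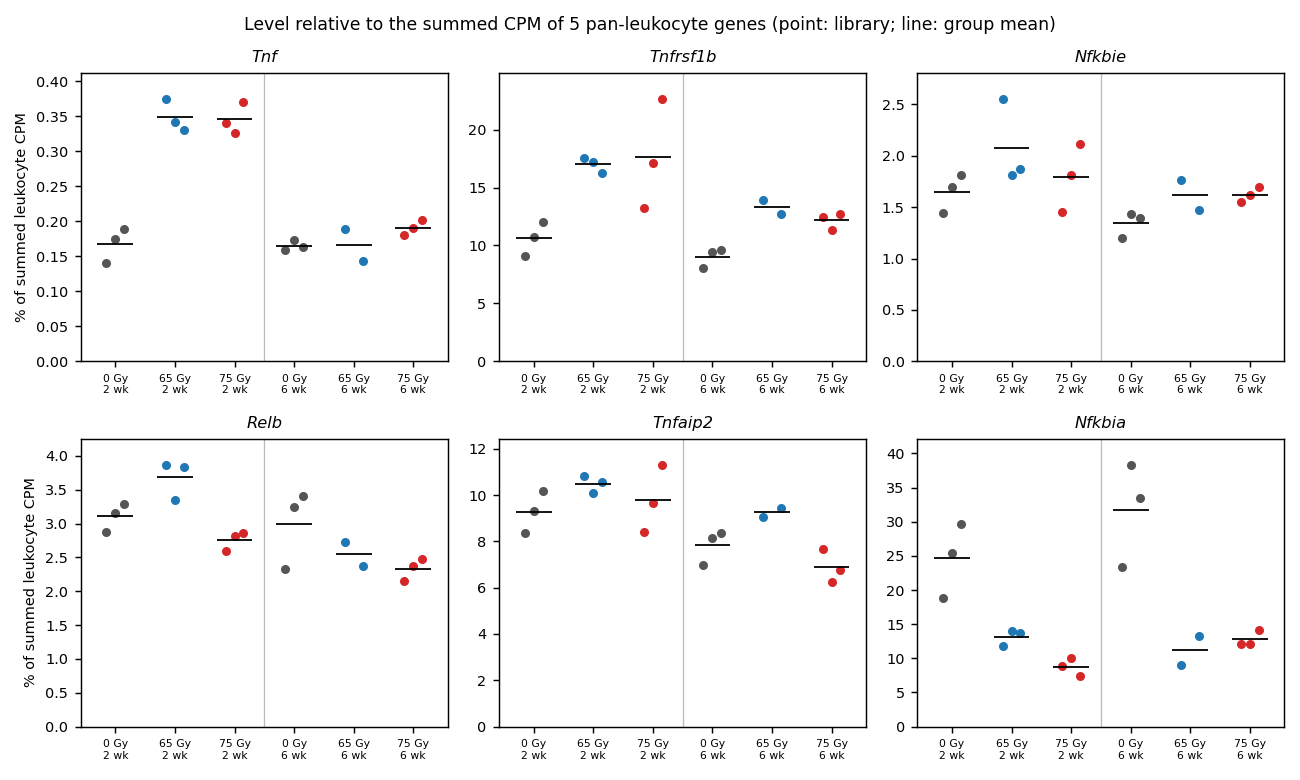
CPM of 6 of the genes as a percentage of the summed CPM of 5 pan-leukocyte genes in the same library, with 1 point per library and a line at the group mean. Tnf at 2 weeks (0.349% and 0.346% against 0.168%) and Tnfrsf1b remain above controls, while Nfkbia lies at 13.1% and 8.75% against 24.6%.

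The wider pathway was read from 10 lists with 129 genes tested, and counts below are for 75 Gy at 2 and 6 weeks and then 65 Gy at 2 and 6 weeks. Genes that free TNF from the membrane or control its mRNA had no call among 8. By adjusted p alone 2, 1, 1 and 0 were higher and 2, 2, 0 and 1 lower, beside shares of all genes of 11.8%, 18%, 6.7% and 7.66% higher and 10.5%, 18%, 4.29% and 7.01% lower. Among them Adam17, the protease that sheds TNF, rose by 0.52 (SE 0.13, adjusted p = 0.00759, edgeR) and 0.37 (SE 0.13, adjusted p = 0.0313) after 75 Gy, and Timp3, which inhibits it, fell by 0.50 (adjusted p = 0.0328) and 0.62 (adjusted p = 0.00679). The inactive rhomboids that carry Adam17 to the surface differed in direction after 75 Gy at 2 weeks, Rhbdf2 with 0.36 (adjusted p = 0.0339) and Rhbdf1 with -0.44 (adjusted p = 0.0372). Of 17 genes of the receptor complex none was called. After 75 Gy at 6 weeks 5 of them fell by adjusted p alone, by 0.21 to 0.44 on the log2 scale, where 18% of all genes were lower, among them Rnf31 of the linear ubiquitin ligase (-0.44, SE 0.13, adjusted p = 0.0138). Of 6 IkB kinase genes, Ikbke alone was called, after 75 Gy at 2 weeks (1.13, SE 0.27, adjusted p = 0.00726), and no longer without library 3134.

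None of the other 4 NF-kB subunits was called. After 75 Gy at 2 weeks their median log2 fold change was 0.04, or -0.18 without library 3134. Nfkb2, the partner of RelB, rose by adjusted p at 2 weeks, by 0.64 after 65 Gy (SE 0.18, adjusted p = 0.0369, edgeR) and 0.60 after 75 Gy (SE 0.18, adjusted p = 0.0290), from 47.3 to 60.0 CPM in controls to 61.0 to 116 CPM in irradiated lungs. The 75 Gy value for Nfkb2 includes library 3134 and is not given without it. Rela, the main canonical subunit, fell by 0.51 (SE 0.09, adjusted p = 0.000771) and Nfkb1 by 0.49 (SE 0.12, adjusted p = 0.00728) at 6 weeks after 75 Gy. Rela was then at 72.3 to 81.8 CPM against 103 to 113 CPM in controls. Rel passed in no comparison, with log2 fold changes of -0.27 to 0.17.

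Among 11 other IkB proteins and feedback inhibitors, 1 was called in each comparison, Tnip3, which encodes a partner of A20. Tnip3 was at 1.46 to 2.80 CPM in controls at 2 weeks, 4.11 to 5.62 CPM after 65 Gy and 5.14 to 17.6 CPM after 75 Gy. At 6 weeks it was at 1.27 to 1.43 CPM in controls, 6.22 to 7.32 CPM after 65 Gy and 9.56 to 13.9 CPM after 75 Gy. Its log2 fold changes by edgeR were 1.33 (SE 0.38, adjusted p = 0.0348) and 2.32 (SE 0.38, adjusted p = 0.000708) at 2 weeks and 2.33 (SE 0.41, adjusted p = 0.00219) and 3.15 (SE 0.39, adjusted p = 5.52e-05) at 6 weeks. By adjusted p alone Bcl3 rose in 3 of the 4 comparisons by 0.61 to 0.81. In the death arm 2 of 7 genes were called after 75 Gy at 2 weeks, the necroptosis genes Mlkl (1.21, SE 0.20, adjusted p = 0.000735) and Ripk3 (1.06, SE 0.21, adjusted p = 0.00233), neither without library 3134. Cflar, which restrains caspase-8, fell at 6 weeks by 0.77 after 75 Gy (SE 0.12, adjusted p = 0.000222) and 0.53 after 65 Gy (SE 0.13, adjusted p = 0.0159).

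Among all genes 5.67%, 7.28%, 3.47% and 4.34% were called higher in these comparisons. Of 25 other TNF receptor genes, 7, 8, 5 and 7 were called higher and none lower, led by Eda2r, Tnfrsf9 and Tnfrsf23. Eda2r, a receptor known as a p53 target, was at 3.75 to 4.55 CPM in controls at 2 weeks against 22.2 to 45.2 CPM in irradiated lungs, and at 1.74 to 2.29 against 15.7 to 22.2 CPM at 6 weeks. Tnfrsf9 (4-1BB) was at 0.973 to 1.60 against 6.79 to 15.5 CPM at 2 weeks and at 1.05 to 1.22 against 5.24 to 10.6 CPM at 6 weeks. Of 16 other ligand genes 4, 5, 2 and 5 were called higher and 1, 1, 0 and 0 lower. Tnfsf18 (GITR ligand) at 6 weeks was at 0 to 0.0811 CPM in controls and at 0.734 to 1.75 CPM in irradiated lungs, and the gene called lower after 75 Gy was Eda (1.27 to 2.45 against 3.63 to 6.48 CPM in controls at 2 weeks, and 1.96 to 2.64 against 5.01 to 5.24 CPM at 6 weeks).

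Of 25 other NF-kB target genes 10, 11, 5 and 8 were called higher and 1 lower in each comparison. Ccl2, the monocyte chemoattractant, was at 0.343 to 1.46 CPM in controls at 2 weeks and at 12.6 to 33.5 CPM in irradiated lungs. The gene called lower was Mmp9 each time, a protease stored by neutrophils, at 44.6 to 85.8 CPM in controls and 12.2 to 14.03 CPM after 75 Gy at 2 weeks, beside the lower neutrophil markers given above, whose part was not tested. Bcl2a1a and Bcl2a1b are near-identical copies whose reads may be split, so their calls, after 75 Gy at both times and after 65 Gy at 6 weeks, are uncertain. Of 10 immediate-early genes 0, 3, 0 and 2 were called higher and 2, 0, 1 and 0 lower. Dusp1, an immediate-early phosphatase, was at 305 to 471 CPM in controls and 147 to 181 CPM after 75 Gy at 2 weeks, and Egr2 and Junb were called higher at 6 weeks after both doses. Without library 3134 the counts after 75 Gy at 2 weeks were 7 receptors, 3 ligands and 8 targets called higher, and 2 targets instead of 1 called lower.

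**Figure D5:**
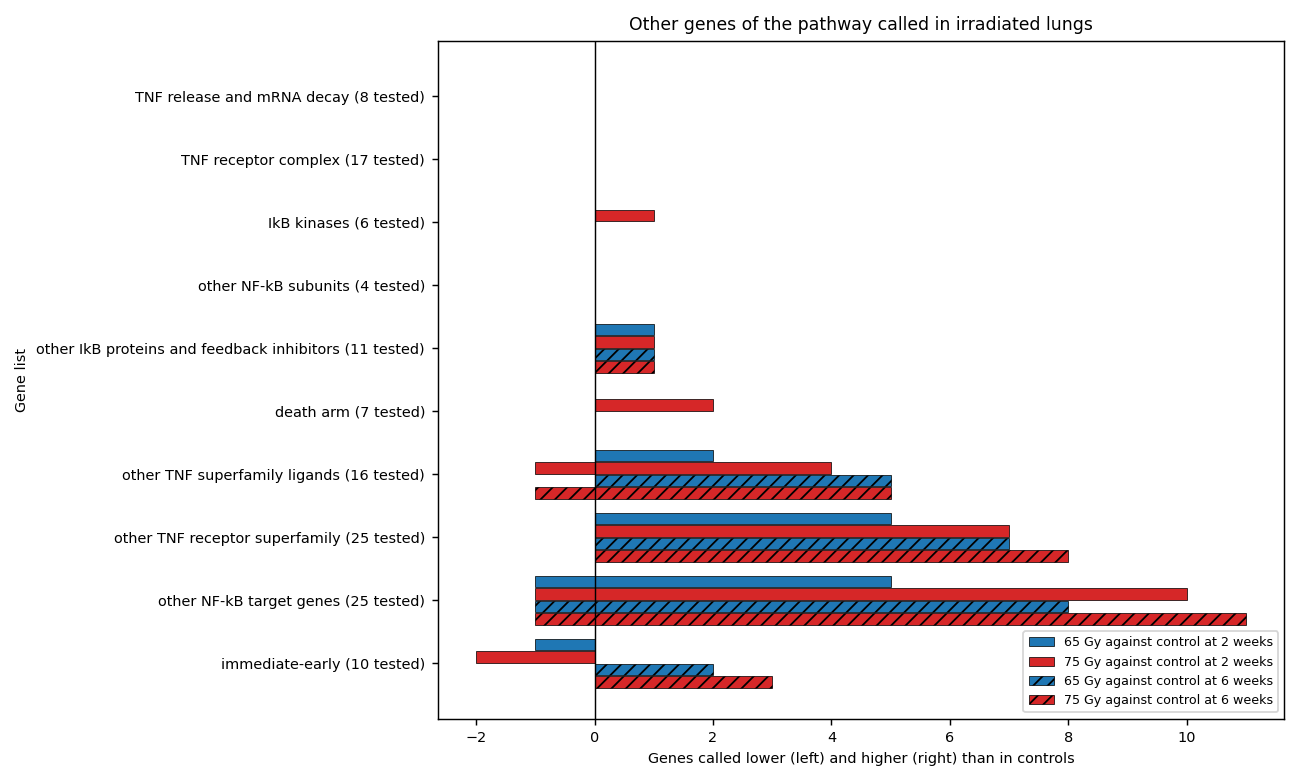
Number of genes of each pathway list called higher (bars to the right) or lower (bars to the left) in the 4 comparisons with controls, with the number tested beside each list. The TNF release, receptor complex and NF-kB subunit lists have no call, and the receptor superfamily (5 to 8 of 25) and target lists (5 to 11 of 25) have the most.

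Genes with the most similar pattern were sought among 14482 genes by the root mean square difference of centred log2 CPM over the 17 libraries. For Relb the closest was Nfkb2, at 0.0957, followed by Fancd2 and Mcm3. For Nfkbia the closest were Tob2 (0.118), Itprip (0.163) and Ifi203-ps. Tnfrsf1b was closest to Pld4 (0.109), Slc11a1 and Cotl1, and Tnfaip2 to Plekho2 (0.116). Within the set, the closest pair was Tnfrsf1a and Traf1 (0.182), followed by Tnfaip2 with Nfkbie (0.200) and with Relb (0.201), and the most distant was Tnf and Nfkbia (1.06). The measure is not scaled to how much a gene varies, so genes that vary little lie close to each other whatever their pattern. Tnfrsf1a and Traf1 had the narrowest ranges of the set (1.463-fold and 1.460-fold), so their closeness does not show a shared pattern. Over the 6 group means the closest gene was still Tob2 for Nfkbia and was Cenpa for Relb.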

How the data were processed

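Polyadenylated RNA of mouse lung was sequenced in 17 libraries in 6 groups of dose and time. Per the study's methods the reads were trimmed with Trimmomatic, aligned to GRCm38.p6 with HISAT2 and assembled with StringTie. The authors deposited a table of raw read counts per gene, and how counts were derived from the assembly is not given in the sources used here. The rows of the 10 genes were found by symbol. Counts of all genes were filtered with filterByExpr (minimum count 10, minimum total 15), scaled with TMM and tested with the quasi-likelihood F test of edgeR 4.0.16 in R 4.3.3, with 1 coefficient per group over all libraries and Benjamini-Hochberg adjustment over 22052 genes. DESeq2 1.42.0, other scaling and filters, only the groups compared, and each library left out in turn were alternatives, and the code was tested on simulated data. CPM used TMM-scaled library sizes, and 95% intervals are the estimate with its SE under a normal curve. Levels between genes used merged exon lengths of GENCODE M21, and log2 CPM used a prior count of 2. Replicates differed by more than sampling noise, and the labels do not say that they came from separate animals, so p-values measure the spread between these libraries. The 10 genes and all lists were chosen with earlier results of these data known. All 10 genes are described. From each list the text names some of the up to 3 called genes with the smallest p in a comparison, and the 4 other NF-kB subunits. Adam17, Timp3, Rhbdf1, Rhbdf2, Rnf31, Bcl3 and Cflar were named after their values were seen. Cd70 was not tested because of low counts. The genes most like Tnf in pattern are not reported here.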

Additional observations from a re-analysis of the deposited data

How the results depend on the processing

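Leaving out single libraries changed no sign of a member that passed the test against controls. Among members that did not pass, signs changed, and the ranges of the log2 fold change over these fits were as follows. Against controls, Traf1 ranged from -0.092 to 0.12 (75 Gy, 2 weeks), -0.15 to 0.072 (65 Gy, 2 weeks) and -0.12 to 0.0065 (65 Gy, 6 weeks), Tnfrsf1a from -0.063 to 0.13 (65 Gy, 2 weeks), and Tnfaip3 from -0.10 to 0.75 (75 Gy, 2 weeks) and -0.43 to 0.25 (65 Gy, 6 weeks). In the other comparisons such ranges were computed for the 6 members that passed the adjusted p against a control. For 75 against 65 Gy at 2 weeks they were -0.38 to 0.13 for Relb, -0.0093 to 0.52 for Tnf, -0.10 to 0.77 for Tnfrsf1b, -0.16 to 0.53 for Tnfaip2 and -0.29 to 0.44 for Nfkbie. At 6 weeks they were -0.091 to 0.028 for Tnfrsf1b, -0.12 to 0.071 for Relb and -0.017 to 0.24 for Nfkbie. Between control times Relb ranged from -0.024 to 0.11 and Tnf from -0.019 to 0.20. For the change of effect with time, Nfkbia (-0.16 to 0.12) and Nfkbie (-0.39 to 0.32) changed sign for 75 Gy, and Nfkbie (-0.21 to 0.12) for 65 Gy. Of the other 4 members, Birc3 (-0.20) and Traf1 (-0.050) between doses at 2 weeks, and Tnfaip3 (0.27) and Birc3 (0.053) in the change of the 75 Gy effect, changed sign without library 3134.

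Counts of calls moved more. With adjusted p alone, without the fold limit, 4922 and 7935 genes were called after 75 Gy at 2 and 6 weeks, 2422 and 3234 after 65 Gy, and 359 between control times, with 3, 5 and 2 members higher after 75 Gy at 6 weeks, 65 Gy at 2 weeks and 65 Gy at 6 weeks, and 1 member lower, Nfkbia, in 3 comparisons. Fitting only the groups compared left 834 genes and 2 members after 75 Gy at 2 weeks (Tnfaip2 and Nfkbie had adjusted p of 0.0833 and 0.0881, the upper ends of ranges from 7.04e-05 and 0.000333 over the alternatives), 1 gene between doses at 6 weeks, 32 between control times and 9 for the change of the 65 Gy effect. DESeq2 called 7 and 14 genes between doses, 225 between control times, and 301 and 78 for the change of effect of 75 and 65 Gy. With a filter of 1 count, 1 gene was called between doses at 6 weeks and 5 for the change of the 65 Gy effect. With single libraries left out, 1097 (without library 3134) to 2053 genes were called in either direction and 2 to 4 members higher after 75 Gy at 2 weeks, and 604 (without 3138; 743 without 3140) to 953 genes, 0 to 1 members higher and 0 to 1 lower after 65 Gy at 6 weeks. The counts ran from 0 to 1 and 0 to 4 between doses at 2 and 6 weeks, 58 to 133 between control times (under 127 by over 1.5 times without 3126, 3135, 3136 or 3137), 29 to 104 for the change of effect of 75 Gy (29 without 3142 or 3143, 30 without 3135 or 3136, 31 without 3126, 92 without 3141, 104 without 3132) and 0 to 7 for that of 65 Gy. The lists without library 3134 were computed after seeing the data. The causes of these differences were not tested, other than the smaller number of samples or the dropped limit by construction.

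No paired analysis was possible because no number is shared by libraries of different groups. Groups of 2 or 3 libraries limit what can be detected, and when 1 of the 2 libraries of 65 Gy at 6 weeks is left out, the other is assumed to vary like the other groups.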
